A study of Mus musculus with 22 samples.

Results

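The genes described here encode the nuclear subunits of respiratory complexes III, IV and V, the cytochrome bc1 complex, cytochrome c oxidase and the ATP synthase. A gene was a member when its symbol began with Uqcr, with Cox and a digit from 4 to 8, or with Atp5, or was Cyc1, and did not carry the suffix -ps. By that rule, which uses names and no measured value, 46 of the 40756 gene identifiers in the 3 count tables were members: 9 of complex III, 19 of complex IV and 18 of complex V. The study followed mice that lose Dnmt1, the maintenance DNA methyltransferase, in cells of the limb skeleton. Primary chondrocytes came from knee articular cartilage of mice at postnatal day 3 to 5 and were kept in DMEM with 10% serum. They were sequenced at day 0 (3 control and 3 conditional knockout libraries, cKO) and after 3 days of BMP2 at a stated 100 ng/µl (4 and 4), a growth factor used to drive chondrocyte differentiation. Cartilage taken straight from mice at postnatal day 5, with collagenase used to remove connective tissue, gave 4 control and 4 cKO libraries, with 2 males and 2 females in each genotype. Controls are labelled Dnmt1 flox in culture and flox in cartilage, so they too carry the floxed allele, and the cKO animals add Prrx1-Cre. This Cre acts in limb bud mesenchyme, which also gives rise to connective tissue cells of the limb, so deletion is not restricted to chondrocytes.

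As background, complex III takes electrons from ubiquinol and passes them to cytochrome c, complex IV hands them on to oxygen, and both pump protons out of the mitochondrial matrix. Complex V lets the protons flow back through a ring of c subunits and uses the turning of its stalk to make ATP. Only cytochrome b of complex III and a few subunits of complexes IV and V are encoded in mitochondrial DNA. The many others, including all members here, are nuclear genes. Several complex IV subunits exist as a broadly expressed form and a form restricted to muscle, lung or testis. Chondrocytes live at low oxygen and lean on glycolysis, and their demand on oxidative phosphorylation changes as they differentiate.

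Culture counts are the authors' estimated counts, rounded here to whole numbers. Day 0 libraries held 41749327 to 51741478 counts each, day 3 libraries 14434197 to 18918714 and cartilage libraries 1100198 to 1888896, so a single cartilage library resolves low genes far less well than a culture library. Levels below are CPM, counts scaled to a common library size with TMM, a correction for library composition, unless stated otherwise. Dnmt1 itself lay at 147 to 159 CPM in controls against 25.7 to 31.3 CPM in cKO at day 0, at 64.9 to 83.4 against 11.6 to 36.4 CPM at day 3, and at 33.7 to 47.7 against 11.5 to 13.9 CPM in cartilage. Summed chondrocyte markers were at 121913 to 128887 CPM in control and 45464 to 55179 CPM in cKO libraries at day 0, and at 84145 to 102894 against 1180 to 15905 CPM at day 3. The lowest of these sums belonged to cKO replicate 4 at day 3, a library that stood apart from its group. Osteoclast and myeloid markers summed to 395 CPM in it and to 109 to 127 CPM in the other cKO libraries at day 3. The labels call the culture libraries biological replicates but do not say that these come from separate animals. Within a genotype, cartilage libraries of different sex cannot share an animal, and for those of the same sex the labels do not say. The p-values therefore measure the spread between these samples, part of which may be technical. All control cartilage libraries were made in 1 pool and all cKO libraries in another, so pool and genotype cannot be told apart there. In these bulk samples, fewer cells of a type and less RNA per cell cannot be told apart either.

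Loss of Dnmt1 was accompanied by lower RNA of a set of complex III, IV and V subunits in culture, by small amounts, while a few subunits rose and the steepest changes fell on tissue-restricted forms of complex IV. At day 0, 42 members were expressed enough to test and 23 passed (edgeR quasi-likelihood test, Benjamini-Hochberg adjusted over all genes), against 64.5% of all 15530 genes tested. Of these, 19 were lower in cKO, against 31.6% of all genes, and 4 were higher, against 33%. At day 3, 16 of 42 passed, against 48.1% of all genes: 12 were lower, against 22.6%, and 4 higher, against 25.5%. Without cKO replicate 4 the day 3 count was 19 of 43, with 13 lower and 6 higher, against 55.1% of all genes. In cartilage, 0 of 37 tested members passed with edgeR, against 6.19% of all genes (3.15% higher and 3.04% lower), and 3 had an unadjusted p under 0.05. The median log2 fold change of tested members was -0.09 at day 0, -0.08 at day 3 and -0.00 in cartilage, beside 0.01 over all genes in each setting. Across the cultures 13 members passed at both days, of which 9 were lower and 3 higher both times and Cox6b2 changed direction, and 16 passed at neither. The share of all genes that passed at both days was not counted, so these joint numbers have no background beside them. The 2 culture comparisons use different libraries.

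The split between higher and lower calls at day 0 depended on scaling. When library totals replaced TMM the median of all genes moved from 0.01 to 0.12, and the calls became 11 higher and 12 lower in place of 4 and 19. At day 3 the same change moved the median of all genes from 0.01 to 0.06 and gave 7 higher and 10 lower. The smaller falls at day 0 are therefore falls relative to the other genes in the library. The members' summed raw counts made up 0.433% to 0.435% of a control library and 0.425% to 0.432% of a cKO library at day 0.

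**Figure D1:**
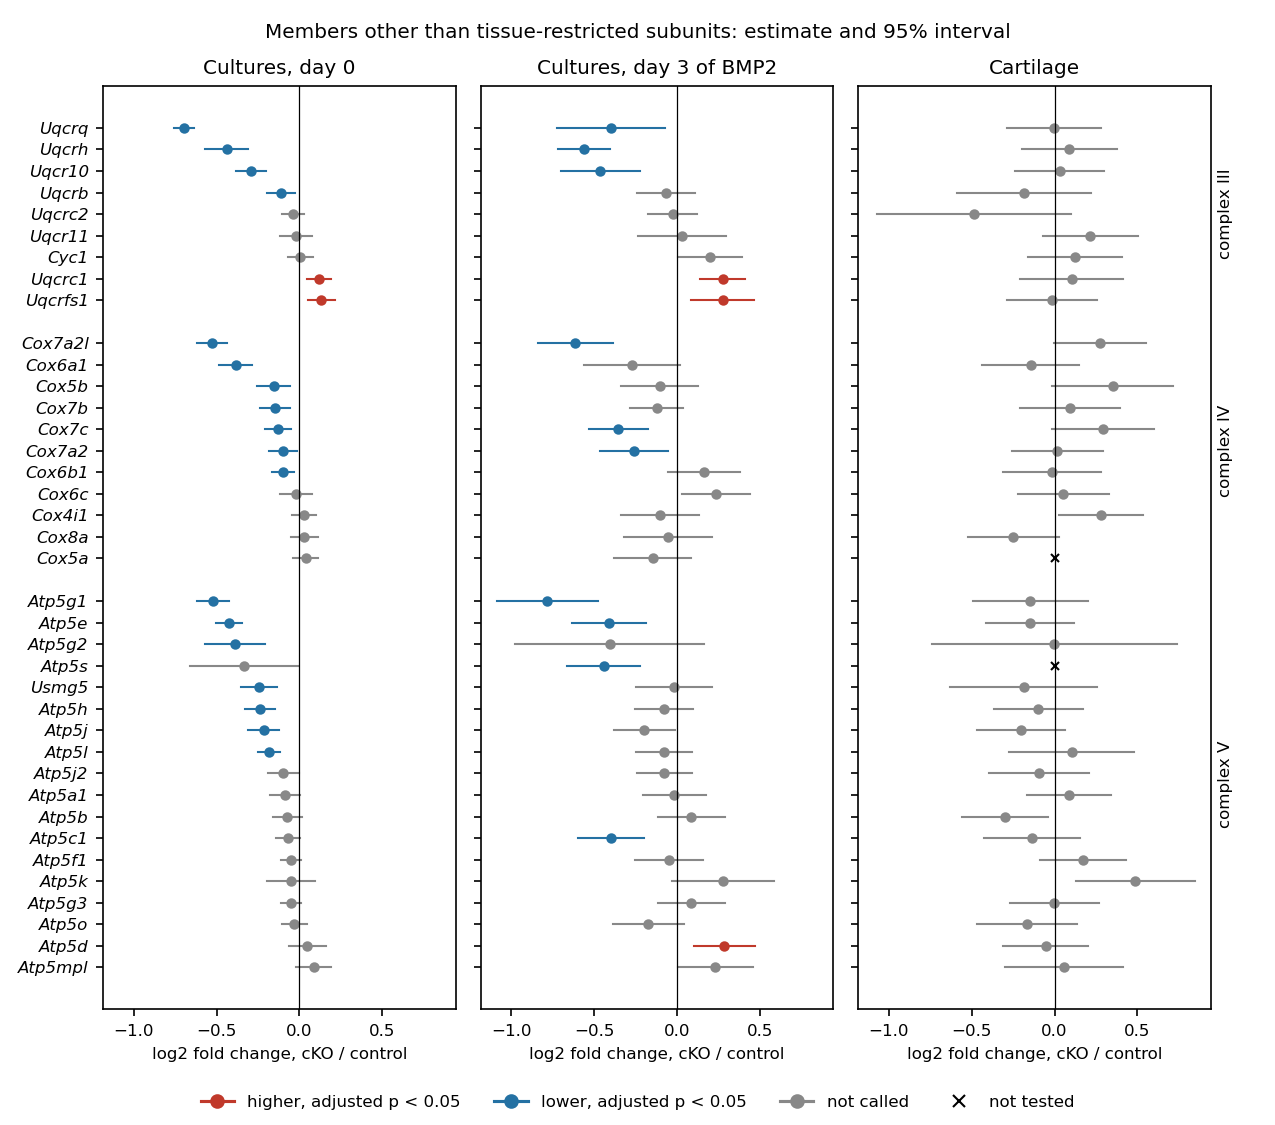
Log2 fold change of cKO over control (horizontal axis) for the 38 members other than the tissue-restricted subunits and Cox6c2, at day 0, at day 3 of BMP2 and in cartilage. Points are edgeR estimates and bars 95% intervals. Most points in both cultures lie left of 0, Uqcrq and Cox7a2l among the farthest at day 0 and Atp5g1 at day 3, while cartilage intervals are wide and cross 0 for nearly every member.

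In complex III the calls differed between the small and the larger subunits. Its 2 core proteins face the matrix, cytochrome c1 (Cyc1) and the Rieske iron-sulfur protein (Uqcrfs1) carry the electrons, and 5 small subunits surround them without redox centres. Of the 5 small subunits, 4 were lower at day 0 and 3 at day 3, beside 31.6% and 22.6% of all genes, and none was higher. Of the 4 larger ones, Uqcrc1 and Uqcrfs1 were higher on both days, beside 33% and 25.5% of all genes, and none was lower. Uqcrc2 and Cyc1 passed at neither day.

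Uqcrq, a small subunit that lies next to cytochrome b (chromosome 11, 53427922 to 53430831, GRCm38), stood at 134, 135 and 137 CPM in day 0 controls and at 83.2, 84.4 and 83.0 CPM in cKO. The groups lay far apart, and the log2 fold change was -0.70 (SE 0.03, edgeR adjusted p = 7.39e-08). At day 3 its controls read 104, 87.6, 69.5 and 108 CPM and the cKO libraries 65.7, 63.9, 70.2 and 80.4 CPM. Control replicate 3 sat inside the cKO range, and the fall of 0.40 (SE 0.14, edgeR adjusted p = 0.0471) failed the threshold when any of 6 of the 8 libraries was left out, with adjusted p up to 0.118. In cartilage the groups overlapped widely, at 75.6, 75.9, 75.6 and 79.9 CPM in control and 74.6, 92.1, 67.8 and 72.2 CPM in cKO. The log2 fold change there was -0.00, with a 95% interval from -0.29 to 0.28 that does not reach the day 0 value.

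Uqcrh, the acidic hinge protein that helps cytochrome c1 dock its partner (chromosome 4, 116066965 to 116075071), read 91.7, 86.5 and 90.6 CPM in day 0 controls and 59.7, 69.7 and 68.7 CPM in cKO. At day 3 it read 122, 116, 106 and 126 CPM in control and 75.8, 79.7, 79.6 and 83.3 CPM in cKO. The groups were separate at both days, with log2 fold changes of -0.44 (SE 0.06, edgeR adjusted p = 0.00013) and -0.56 (SE 0.07, adjusted p = 0.000329). Its cartilage libraries overlapped, at 212, 207, 237 and 272 CPM against 246, 255, 208 and 272 CPM, and the estimate was 0.09 with an interval from -0.20 to 0.37. Uqcr10, another small subunit, went from 47.5, 47.0 and 47.5 CPM to 39.0, 39.6 and 37.3 CPM at day 0, and from 61.7, 52.2, 46.2 and 57.9 CPM to 43.2, 35.3, 40.6 and 39.1 CPM at day 3. It fell by 0.29 and 0.46 on the log2 scale, with no overlap at either day. Uqcrb was lower at day 0 (-0.11, adjusted p = 0.0283) and stood at -0.07 at day 3, and Uqcr11 passed at neither day (-0.02 and 0.03). Whether the fall of Uqcrq, Uqcrh and Uqcr10 differed between the days was tested, and no complex III member passed for the genotype by day interaction.

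The rises in complex III were small. Uqcrc1, core protein 1, read 111, 108 and 107 CPM in day 0 controls and 122, 115 and 116 CPM in cKO, then 84.7, 80.1, 80.1 and 86.7 CPM against 97.6, 107, 97.8 and 98.6 CPM at day 3. Every cKO library lay above every control at both days, with log2 fold changes of 0.12 (SE 0.03, edgeR adjusted p = 0.00952) and 0.27 (SE 0.06, adjusted p = 0.0057). Uqcrfs1 read 48.8, 49.8 and 47.8 CPM against 53.9, 53.0 and 53.6 CPM at day 0, and 41.5, 34.4, 37.4 and 40.1 CPM against 43.8, 50.1, 48.4 and 43.1 CPM at day 3. These groups were also separate, at 0.13 (adjusted p = 0.00977) and 0.28 (adjusted p = 0.0254). The day 0 call of Uqcrc1 failed without control replicate 2 or 3, with adjusted p up to 0.062, and the day 3 call of Uqcrfs1 failed without control replicate 2 or 3 or cKO replicate 2 or 3, with adjusted p up to 0.080. In a fit of all 14 culture libraries together the day 0 rises of Uqcrc1 (adjusted p = 0.111) and Uqcrfs1 (adjusted p = 0.188) did not pass. Uqcrc2, core protein 2, passed at neither day (-0.04 and -0.03), and Cyc1 stood at 0.01 and 0.20 with adjusted p = 0.901 and 0.0831.

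Among the 10 broadly expressed complex IV subunits, which ring the mitochondrially encoded catalytic core, 6 were lower at day 0, beside 31.6% of all genes, 2 were lower at day 3, beside 22.6%, and none was higher at either day. The steepest fall was that of Cox6a1, a subunit on the core's outer face: 124, 133 and 132 CPM in day 0 controls against 105, 95.04 and 97.5 CPM in cKO. The day 0 groups were separate and the log2 fold change was -0.39 (SE 0.04, edgeR adjusted p = 5.55e-05). At day 3 Cox6a1 read 137, 104, 97.1 and 129 CPM against 91.4, 93.9, 89.2 and 112 CPM. Here cKO replicate 4 overlapped the controls, and the estimate of -0.27 did not pass (adjusted p = 0.109) unless that library was left out. The other 5 were lower at day 0 by 0.10 to 0.16, small shifts on which library-total scaling turned the sign of Cox6b1 and Cox7a2. Cox7c was lower again at day 3, at 125, 114, 103 and 129 CPM in control and 92.1, 93.8, 92.1 and 90.1 CPM in cKO, a fall of 0.35 on the log2 scale (SE 0.08, adjusted p = 0.0063) with no overlap. Cox7a2 also passed at day 3 (-0.26, adjusted p = 0.0419), but failed when any of 6 of the 8 libraries was left out. Cox4i1, which binds the core and carries sites for regulation by ATP, was level at 201, 212 and 208 CPM against 216, 208 and 208 CPM at day 0 (0.03, adjusted p = 0.503).

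Cox7a2l, a relative of Cox7a2 that joins complexes III and IV into a supercomplex rather than serving as a plain complex IV subunit, fell with the others (chromosome 17, 83501918 to 83517330). Its levels were 104, 96.8 and 95.5 CPM in control and 67.4, 70.6 and 67.3 CPM in cKO at day 0, and 166, 142, 124 and 159 CPM against 88.9, 103, 100.1 and 93.9 CPM at day 3. The groups were separate on both days, with log2 fold changes of -0.53 (SE 0.04, edgeR adjusted p = 4e-06) and -0.61 (SE 0.10, adjusted p = 0.00137). In cartilage 3 of the 4 cKO libraries, at 100.0, 96.4 and 99.1 CPM, lay above all controls at 83.0, 77.6, 83.7 and 69.4 CPM, and cKO replicate 3 at 80.8 CPM did not. That estimate was 0.27 (SE 0.13, edgeR adjusted p = 0.237), with an interval from -0.00 to 0.55. Both culture estimates lie below that interval, but it covers only the spread between these cartilage libraries.

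In complex V, 7 of 18 members were lower and none higher at day 0, beside 31.6% lower and 33% higher over all genes, and 4 were lower and 1 higher at day 3, beside 22.6% and 25.5%. The ring of c subunits is encoded by Atp5g1, Atp5g2 and Atp5g3, which make the same mature protein from different precursors. Atp5g1 (chromosome 11, 96068852 to 96075670) read 140.2, 151 and 157 CPM in day 0 controls and 101, 106 and 104 CPM in cKO, then 136, 109, 89.3 and 134 CPM against 68.6, 64.9, 73.7 and 65.3 CPM at day 3. The groups were separate at both days, with log2 fold changes of -0.52 (SE 0.04, edgeR adjusted p = 5.88e-06) and -0.78 (SE 0.13, adjusted p = 0.00169). Its cartilage levels overlapped, at 44.8, 50.9, 45.0 and 32.2 CPM against 48.4, 40.9, 30.4 and 34.4 CPM (-0.15, interval -0.49 to 0.20). In the authors' estimated counts of the same cartilage libraries Atp5g1 was 3.69 times higher in control, at 159 ± 12.7 against 152 ± 24.7 CPM in cKO (SD, n = 4), with a log2 fold change of -0.06. Atp5g3 passed at neither day: 148, 147 and 144 CPM against 142, 141 and 141 CPM at day 0, and 123, 111, 98.1 and 127 CPM against 122, 128, 121 and 117 CPM at day 3. Its estimates were -0.05 (adjusted p = 0.119) and 0.09 (adjusted p = 0.448), so of 2 genes for 1 mature protein, one was lower in both cultures and the other passed in neither.

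Atp5g2 was lower at day 0 (-0.39, adjusted p = 0.00214) and stood at -0.41 at day 3 (adjusted p = 0.209), but its counts are uncertain. Gm10175, a transcribed processed pseudogene on chromosome 7, matches 645 bp of its transcript at 100% identity and was assigned 9.27 times the counts of Atp5g2 at day 0 and 13.0 times at day 3. Gm10175 itself was lower at both days, by 0.22 (edgeR adjusted p = 0.00549) and 0.40 (adjusted p = 0.0220) on the log2 scale. Added together, Atp5g2 and its copies read 125 ± 7.25 CPM in control and 106 ± 4.31 CPM in cKO at day 0 (SD, n = 3 each), and 134 ± 17.8 against 101 ± 12.4 CPM at day 3 (SD, n = 4 each).

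Atp5e, the epsilon subunit at the foot of the central stalk (chromosome 2, 174461072 to 174464105), was lower in both cultures. It read 62.5, 60.3 and 60.8 CPM in control and 45.7, 45.7 and 45.2 CPM in cKO at day 0, and 81.1, 70.1, 66.0 and 84.0 CPM against 56.3, 54.3, 63.3 and 52.5 CPM at day 3. The groups did not overlap, and the fall was 0.43 (SE 0.03, edgeR adjusted p = 6.58e-06) and 0.41 (SE 0.10, adjusted p = 0.00841) on the log2 scale. Its 2 neighbours in the stalk moved apart at day 3. Atp5c1, the gamma subunit that turns inside the head, read 122, 111, 108 and 123 CPM in control and 91.1, 88.3, 96.6 and 75.9 CPM in cKO (-0.40, SE 0.09, adjusted p = 0.00578). Atp5d, the delta subunit, read 69.9, 59.6, 61.5 and 70.2 CPM in control and 73.8, 76.3, 83.3 and 84.9 CPM in cKO (0.29, SE 0.08, adjusted p = 0.018). Both pairs of groups were separate, and neither gene passed at day 0 (-0.07 and 0.05). The call of Atp5d failed without control replicate 2 or 3, with adjusted p up to 0.063.

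The head subunits Atp5a1 and Atp5b, which bind nucleotide and form ATP, passed in neither culture: -0.09 and -0.07 at day 0, -0.02 and 0.09 at day 3. In the peripheral stalk, which holds the head still, Atp5h (-0.24) and Atp5j (-0.22) were lower at day 0 and no member passed at day 3. Among the small membrane subunits, Usmg5 (-0.24) and Atp5l (-0.18) were lower at day 0 and stood at -0.02 and -0.08 at day 3. No complex V member passed for the genotype by day interaction. Atp5s, a coupling factor that is not part of the core enzyme, was lower at day 3 (-0.44, adjusted p = 0.00585) and stood at -0.34 at day 0 (adjusted p = 0.0688).

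**Figure D2:**
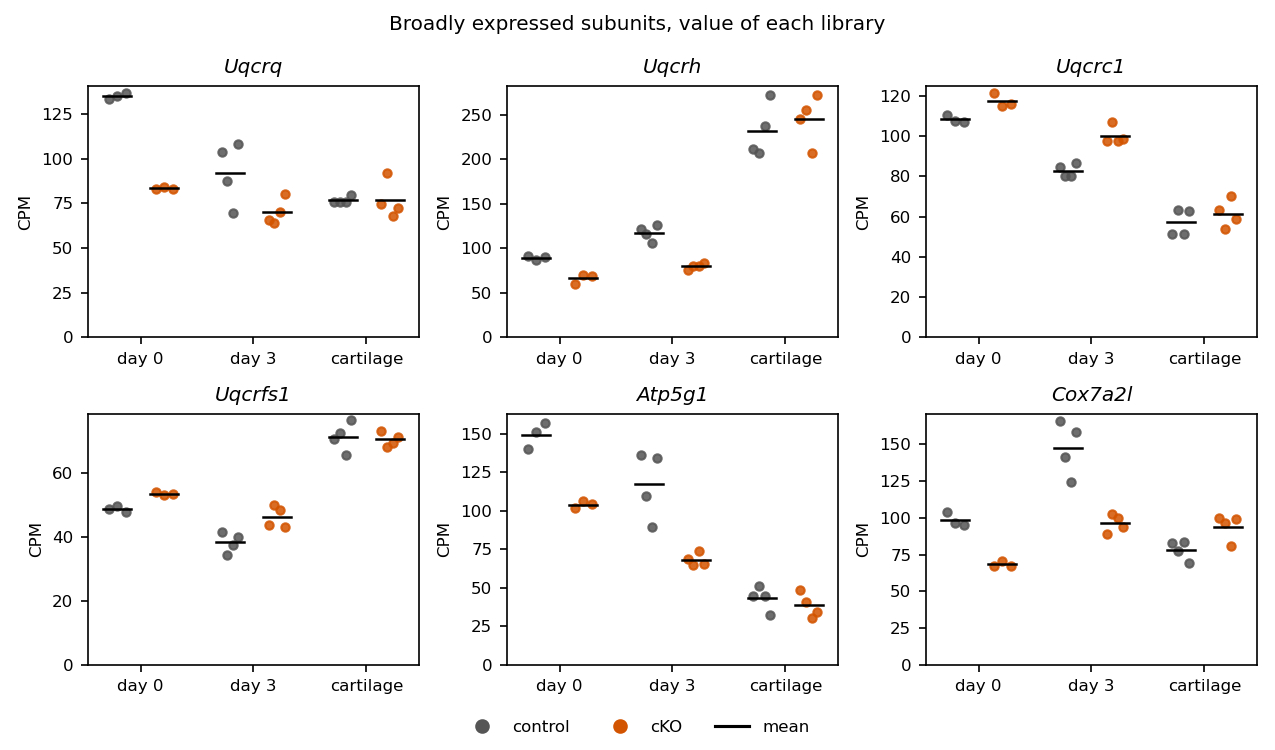
CPM in every library (points, with bars at group means) of 4 complex III subunits, Atp5g1 and the supercomplex factor Cox7a2l, in control and cKO at day 0, at day 3 and in cartilage. Uqcrh, Atp5g1 and Cox7a2l separate downward in both cultures and Uqcrc1 and Uqcrfs1 upward, while in cartilage control and cKO points overlap.

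Most members have short transcripts, and fold changes varied with transcript length across all genes. Genes with transcripts under 600 bp had a median log2 fold change of -0.12 at day 0 (378 genes) and -0.27 at day 3 (235 genes), and the 12 members in that range had -0.12 and -0.17. In the range of 600 to 1200 bp all genes stood at -0.06 and -0.08, and the 17 members at -0.10 and -0.11. In cartilage the same short ranges leaned the other way, at 0.22 and 0.08 over all genes, and at 0.06 and -0.00 over the 10 and 15 members tested there. Of the 12 shortest members 7 were lower and 2 higher at day 0, beside 25.1% lower and 15.3% higher over all genes of that length. Length here is that of the longest transcript annotated as principal, and the transcripts present in these cells may be shorter. Among members with a larger fall at day 0, the transcripts used measure 421 bp for Atp5e, 434 bp for Uqcr10, 547 bp for Uqcrh, 571 bp for Cox6a1, 1076 bp for Cox7a2l, 1521 bp for Uqcrq and 4715 bp for Atp5g1. The part that transcript length has in the members' fall was not tested.

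**Figure D3:**
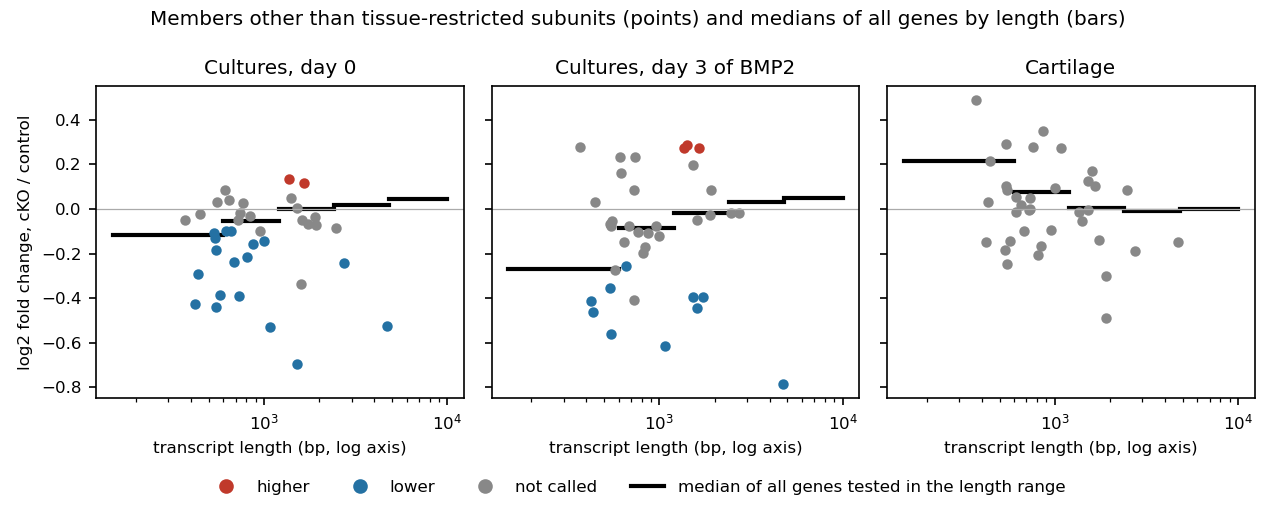
Log2 fold change of cKO over control (vertical axis) against transcript length on a log axis, for members other than tissue-restricted subunits (points) and as medians of all genes in each length range (bars), in the 3 settings. The bars of the shortest ranges lie below 0 in the cultures and above 0 in cartilage. At day 0 Atp5e, Uqcrh, Cox7a2l, Uqcrq and Atp5g1, picked for their large falls, lie below the bar of their own range.

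The largest changes were those of tissue-restricted complex IV subunits. Cox7b2, the testis form of Cox7b, and Cox6b2, the testis form of Cox6b1, are shown with their partners because their RNA moved while that of the partners moved little. The lines give RefSeq promoters (GRCm38.p6), 250 bases before to 50 after the start, 5′ to 3′ on the gene's strand, with every CG in capitals. CG is the dinucleotide that Dnmt1 keeps methylated through cell division. Methylation itself is not measured in these data.
Cox7b2 (chr5:71548156-71548455, minus strand, 10 CG): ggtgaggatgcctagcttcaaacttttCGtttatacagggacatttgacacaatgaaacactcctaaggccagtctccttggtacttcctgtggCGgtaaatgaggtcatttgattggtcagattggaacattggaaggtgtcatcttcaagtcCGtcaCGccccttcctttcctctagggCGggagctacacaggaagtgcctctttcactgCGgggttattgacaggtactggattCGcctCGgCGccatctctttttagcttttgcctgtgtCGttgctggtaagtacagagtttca
Cox7b (chrX:106015450-106015749, plus strand, 5 CG): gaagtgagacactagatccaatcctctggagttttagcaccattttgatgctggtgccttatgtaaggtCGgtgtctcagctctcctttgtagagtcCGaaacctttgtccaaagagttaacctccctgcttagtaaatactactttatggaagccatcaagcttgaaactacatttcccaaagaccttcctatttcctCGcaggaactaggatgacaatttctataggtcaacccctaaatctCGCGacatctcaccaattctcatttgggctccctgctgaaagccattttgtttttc
Cox6b2 (chr7:4753045-4753344, minus strand, 10 CG): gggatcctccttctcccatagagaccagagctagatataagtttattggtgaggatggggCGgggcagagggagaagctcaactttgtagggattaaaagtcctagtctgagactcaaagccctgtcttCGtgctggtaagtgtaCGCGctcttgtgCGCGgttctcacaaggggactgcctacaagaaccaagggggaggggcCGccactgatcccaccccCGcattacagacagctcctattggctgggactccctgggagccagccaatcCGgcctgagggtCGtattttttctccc
Cox6b1 (chr7:30626065-30626364, minus strand, 17 CG): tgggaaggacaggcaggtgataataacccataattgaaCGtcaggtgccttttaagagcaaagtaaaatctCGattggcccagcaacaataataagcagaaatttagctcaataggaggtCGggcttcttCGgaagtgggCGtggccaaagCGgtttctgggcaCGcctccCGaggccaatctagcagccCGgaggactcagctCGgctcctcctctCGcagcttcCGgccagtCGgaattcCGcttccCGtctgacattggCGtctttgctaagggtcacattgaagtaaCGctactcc
The 2 testis forms each hold 10 CG, their broad partners 5 and 17, and the median over 27025 genes in the table was 8.

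Cox7b2 (chromosome 5, 71442824 to 71548205) was found in cKO libraries of all 3 settings and hardly at all in controls. At day 0 it had 0 counts in each of the 3 controls and 132 to 163 counts in the cKO libraries, or 3.75, 2.90 and 2.80 CPM. Against a floor of 3 counts per library that is at least 49.7-fold higher (edgeR adjusted p = 2.28e-06). At day 3 the controls read 0, 0.167, 0 and 0 CPM, the single value coming from 3 counts, and the cKO libraries 10.5, 13.96, 12.9 and 10.9 CPM, at least 63.0-fold higher (edgeR adjusted p = 1.97e-05). Every cKO library lay above every control on both days. Per kilobase of transcript, Cox7b2 made up 10.7% ± 1.35 (SD, n = 3) of the Cox7b and Cox7b2 pair in day 0 cKO libraries and 28.0% ± 1.80 (SD, n = 4) in day 3 cKO libraries, against 0% and 0.123% in controls. Cox7b stayed the main form, at 52.3, 54.4 and 54.7 CPM against 50.01, 47.1 and 48.8 CPM at day 0 (-0.15, adjusted p = 0.0104) and 63.6, 62.4, 57.6 and 65.7 CPM against 54.9, 58.9, 61.6 and 53.3 CPM at day 3 (-0.12, adjusted p = 0.183).

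In cartilage Cox7b2 was too low for the main filter, with 0 counts in each control and 5 to 10 counts in each cKO library. The cKO levels were 4.92, 4.27, 6.95 and 8.39 CPM, at least 2.75-fold above the floor. An exact two-sided permutation test gave p = 0.0286, the smallest that 4 against 4 allows, and 0.152 after Benjamini-Hochberg adjustment over the 16 members and settings that fell below the filter. DESeq2 called it (adjusted p = 0.00077), as did edgeR without the filter (adjusted p = 3.86e-08).

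Cox8c, the testis form of Cox8a, was also found mainly in cKO libraries at day 0 and in cartilage. It had 0 counts in all day 0 controls and 0.299, 0.198 and 0.241 CPM in cKO, at least 3.88-fold higher, with an exact permutation p of 0.1, the smallest that 3 against 3 allows. In cartilage it read 0, 0, 0 and 0.503 CPM in control and 2.46, 5.12, 2.61 and 14.3 CPM in cKO, at least 2.74-fold higher (exact permutation p = 0.0286, adjusted 0.152, DESeq2 adjusted p = 0.00827). At day 3 only 2 cKO libraries had any count, at 0.116 and 0.0539 CPM, which is below the floor of 0.151 to 0.211 CPM that 3 counts make in those libraries.

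Cox6b2 (chromosome 7, 4751792 to 4753094) did not follow them, and its change reversed between the days. It read 0.545, 0.589 and 0.598 CPM in day 0 controls and 0.921, 0.902 and 1.11 CPM in cKO, higher by 0.76 on the log2 scale (SE 0.20, edgeR adjusted p = 0.00888). At day 3 the controls stood at 11.0, 6.18, 6.01 and 5.00 CPM and the cKO libraries at 2.85, 2.02, 3.23 and 2.14 CPM, a log2 fold change of -1.46 (SE 0.29, adjusted p = 0.00338). The groups were separate both times, in opposite directions, and the genotype by day interaction was -2.24 (edgeR adjusted p = 0.00218), against 16.8% of all genes with an interaction. The day 0 rise did not pass when all 14 culture libraries were fitted together (adjusted p = 0.0542). Between day 0 and day 3 it rose by 3.50 on the log2 scale in control and by 1.27 in cKO. In cartilage it overlapped, at 3.67, 4.17, 5.40 and 6.03 CPM against 9.84, 3.41, 1.74 and 3.36 CPM (exact permutation p = 0.886).

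Other testis-restricted genes of the same pathway were measured beside them. Slc25a31, the testis carrier that exchanges ATP for ADP, went from 0.0569 to 5.85 CPM at day 0 (mean, n = 3 each, edgeR log2 fold change 6.63) and was at least 33.9-fold higher in cKO at day 3. In cartilage it had 0 counts in all controls and a mean of 5.07 CPM in cKO, at least 2.27-fold higher. Cyct, testis cytochrome c, had 0 counts in day 0 controls and 0.440 to 0.690 CPM in cKO, at least 8.97-fold higher. Germ cell markers as a list rose with them. Their sum was 1.54 to 1.61 CPM in control and 154 to 174 CPM in cKO at day 0, 1.06 to 1.97 against 122 to 148 CPM at day 3, and 0 to 2.70 against 153 to 190 CPM in cartilage. Of 8 listed markers 7, 6 and 4 were tested in these settings, and all of those were higher. Genes this low in control pass the filter mainly through their cKO libraries, so the direction of these counts was largely fixed beforehand. The part of other cells in these values was not tested.

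Cox4i2 (chromosome 2, 152754173 to 152765037), the lung form of Cox4i1 that is favoured at low oxygen in other cells, had the largest fall of all members in both cultures. It read 15.7, 18.4 and 20.2 CPM in day 0 controls and 9.46, 10.4 and 8.51 CPM in cKO, a change of -0.94 on the log2 scale (SE 0.11, edgeR adjusted p = 4.92e-05). The day 3 libraries read 43.0, 46.2, 47.5 and 54.8 CPM in control and 9.02, 7.31, 7.11 and 1.53 CPM in cKO, a log2 fold change of -2.93 (SE 0.41, adjusted p = 0.000618). Every cKO library lay below every control, and cKO replicate 4 was the lowest. Without that library the fall was 2.62 on the log2 scale (adjusted p = 3.31e-07). Control libraries had more Cox4i2 at day 3 than at day 0 (1.31, adjusted p = 0.00485), cKO libraries stood at -0.70 (adjusted p = 0.0951), and the difference between these was -2.01 (genotype by day interaction, edgeR adjusted p = 0.0135). Per kilobase it made up 8.34% ± 0.832 of the Cox4i1 and Cox4i2 pair in day 0 controls and 4.47% ± 0.439 in cKO (SD, n = 3), then 17.8% ± 2.22 against 2.94% ± 1.59 at day 3 (SD, n = 4). Chondrocyte markers, also lower in cKO at both days (7 of 7 tested), were lowest in the same cKO replicate 4. Whether the 2 measures are linked was not tested. In cartilage, where 2 of 7 chondrocyte markers were lower, Cox4i2 read 31.6, 39.2, 49.5 and 40.7 CPM in control and 36.9, 56.3, 23.5 and 28.5 CPM in cKO (-0.16, interval -0.65 to 0.34), which overlap.

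The muscle forms were low. Cox8b read 0, 0.111, 0.124 and 0 CPM in day 3 controls and 1.28, 0.806, 1.83 and 0.122 CPM in cKO, and cKO replicate 4 fell within the control range. Its mean was at least 5.27-fold above the floor in cKO, with an exact permutation p of 0.0571 (adjusted 0.229). It was under the filter in the main fit and passed in edgeR without replicate 4 (log2 fold change 4.21, adjusted p = 0.000493). That fit removes the cKO library inside the control range, so it adds no support to the permutation test. Skeletal muscle markers summed to 4.84 to 5.63 CPM in day 3 controls and 223 to 2830 CPM in cKO, lowest again in replicate 4. Of 16 listed, 13 were tested and all 13 were higher. With controls this low, the filter largely fixed the direction of that count too. How far muscle-like cells account for Cox8b was not tested. Cox6a2 passed at neither day: 9.08, 9.54 and 8.94 CPM against 8.35, 10.7 and 8.51 CPM at day 0 (0.00), and 4.56, 4.84, 2.66 and 4.52 CPM against 4.77, 4.44, 8.35 and 5.69 CPM at day 3 (0.49, adjusted p = 0.16). In cartilage it had 0 counts in all 4 controls and in 1 cKO library, and 3.28, 3.48 and 3.36 CPM in the other cKO libraries (exact permutation p = 0.143, adjusted 0.381), and edgeR without the filter called it (adjusted p = 0.0127). Skeletal muscle markers in cartilage summed to 33.2 to 101 CPM in control and 118 to 331 CPM in cKO. Whether they and Cox6a2 are linked there was not tested. Cox7a1 never exceeded 0.485 CPM in a culture library. Cox6c2, annotated as a processed pseudogene of Cox6c, had 0 counts in every culture library.

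**Figure D4:**
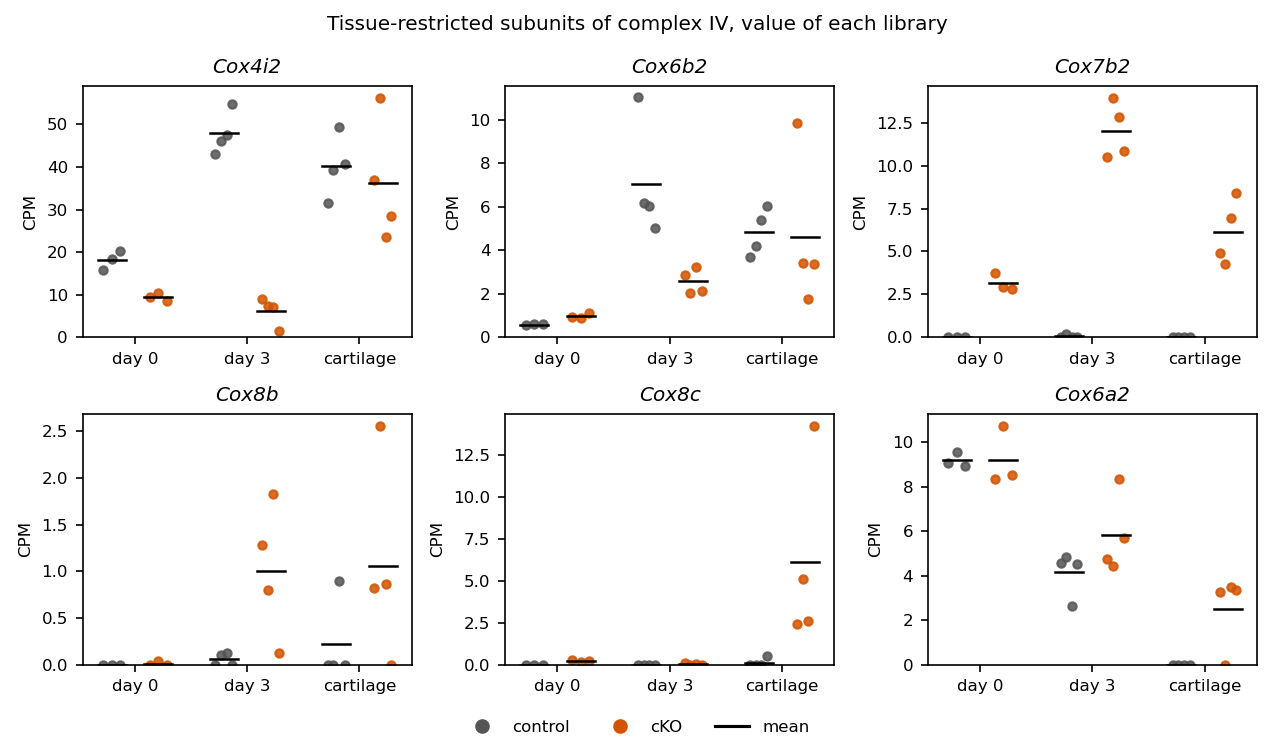
CPM in every library (points, with bars at group means) of 6 tissue-restricted complex IV subunits in control and cKO at day 0, at day 3 and in cartilage. Cox7b2 is at or near 0 in every control and above 2 CPM in every cKO library, Cox4i2 is lower in cKO in both cultures and overlaps in cartilage, and Cox6b2 is higher in cKO at day 0 and lower at day 3.

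Promoter letters were compared for the 34 members with an entry in the RefSeq table (GRCm38.p6). The entries not matched were Atp5a1, Atp5mpl, Cox4i1, Cox4i2, Cox6a2, Cox6c, Cox6c2, Cox8c, Cyc1, Uqcrb, Uqcrc2 and Uqcrq. Nuclear respiratory factor 1 (NRF1) is a transcription factor known to act on many respiratory genes, and its core was searched as GCGCA and GCGC with 1 base (N) between them, on both strands, counting an overlapping match once. It occurred in 8 of 34 members (23.5%) and in 5.19% of 27025 genes. An ETS core of the kind bound by GABPA, CCGGAAGT or ACTTCCGG, occurred in 4 of 34 members (11.8%) and in 4.31% of all genes. The 28 broad members had a median of 19.5 CG per promoter, the 4 tissue-restricted ones 8.5 and all genes 8. Cox6a1, lower at day 0, and Uqcrc1, higher at both days, are shown because both hold a pair of NRF1 cores, in capitals, although their RNA moved in opposite directions.
Cox6a1 (chr5:115348909-115349208, minus strand): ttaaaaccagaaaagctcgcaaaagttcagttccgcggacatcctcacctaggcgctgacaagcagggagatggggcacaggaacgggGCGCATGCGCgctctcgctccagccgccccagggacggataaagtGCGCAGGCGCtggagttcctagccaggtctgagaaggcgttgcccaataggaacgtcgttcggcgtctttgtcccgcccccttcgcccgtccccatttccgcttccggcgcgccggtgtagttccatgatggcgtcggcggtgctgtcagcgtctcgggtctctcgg
Uqcrc1 (chr9:108936398-108936697, plus strand): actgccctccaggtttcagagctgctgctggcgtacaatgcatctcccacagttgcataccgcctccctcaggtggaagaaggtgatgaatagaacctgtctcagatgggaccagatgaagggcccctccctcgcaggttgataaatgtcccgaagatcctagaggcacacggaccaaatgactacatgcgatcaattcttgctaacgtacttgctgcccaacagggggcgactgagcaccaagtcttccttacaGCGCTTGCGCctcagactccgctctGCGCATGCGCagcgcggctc
Such a match describes the letters and does not show that a factor binds there.

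Genes that assemble or regulate the complexes changed in both directions. The counts of their lists stand beside 31.6% lower and 33% higher over all genes at day 0, and 22.6% lower and 25.5% higher at day 3. Of 6 complex III assembly factors 3 were lower at day 0 and 2 at day 3, led by Lyrm7, a chaperone of the Rieske protein (-1.09 at day 0, edgeR adjusted p = 0.000196, and -1.18 at day 3, adjusted p = 0.0028). Of 25 complex IV assembly factors, 7 were lower and 1 higher at day 0, and 5 lower and 2 higher at day 3. Sco2, which delivers copper to complex IV, rose by 0.54 and 0.99 on the log2 scale, while Cox11, which does so too, fell by 0.43 and 0.46, Cox18 by 0.43 and 0.42 and Surf1 by 0.36 and 0.35. Higd1a, a hypoxia-induced protein that binds complex IV, fell by 0.66 at day 0 and stood at 0.07 at day 3. Of 5 ATP synthase assembly factors and inhibitors, Atpif1 was higher (0.24) and Atpaf2 lower (-0.20) at day 0, and Atpaf2 alone was lower at day 3 (-0.48).

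Of 6 mitochondrially encoded partners of the members, mt-Cytb (0.34), mt-Atp6 (0.30) and mt-Atp8 (0.37) were higher at day 0, beside 33% of all genes, and none was lower. At day 3, 0 of 6 passed (edgeR, with mt-Atp6 nearest at adjusted p = 0.0503), and in cartilage 0 of 5 tested. Their median log2 fold change was 0.21 at day 0, 0.24 at day 3 and 0.23 in cartilage. Their summed levels overlapped at day 0, at 10978 to 11906 CPM in control and 11773 to 13212 CPM in cKO. The sums were separate at day 3 (14523 to 15846 against 16970 to 19028 CPM) and in cartilage (4001 to 5358 against 5537 to 6576 CPM). Among 4 carriers of adenine nucleotides and phosphate, Slc25a4, the main muscle and heart carrier, was lower at both days (-0.56 and -0.75), beside the rise of Slc25a31. Of 9 regulators 4 were higher and 3 lower at day 0, and 2 higher and 2 lower at day 3. Ppargc1a, a coactivator that drives mitochondrial biogenesis, fell by 1.68 at day 0, where it was below 1 CPM in every library, and by 3.49 at day 3, from 7.19 to 0.638 CPM on average. Esrra, a nuclear receptor that works with it, rose by 0.77 and 0.30, and Tfam, which packages mitochondrial DNA, fell by 0.35 and 0.33. The rise of Esrra at day 3 (adjusted p = 0.0403) failed when any of 6 of the 8 libraries was left out.

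In cartilage no member passed, and the estimates were imprecise: the 95% interval reached a median of 0.287 to either side of the log2 fold change and at most 0.739. The makeup of the tissue samples also differed in these libraries. Summed chondrocyte markers were at 57813 to 87898 CPM in control and 25643 to 53806 CPM in cKO, osteoclast and myeloid markers at 147 to 496 against 68.9 to 145 CPM (3 of 4 tested were lower) and erythroid markers at 162 to 894 against 13.1 to 379 CPM (4 of 4 were lower). Skeletal muscle markers went the other way, at 33.2 to 101 CPM in control and 118 to 331 CPM in cKO (2 of 3 tested, of 16 listed, were higher). Fibroblast and tendon markers summed to 44395 to 84163 CPM in control and 22257 to 52461 CPM in cKO. The part of these cell types in the members' values was not tested. Atp5k, a small membrane subunit of complex V, was nearest at 0.49 (edgeR adjusted p = 0.102). Atp5b, at 278, 320.2, 327 and 337 CPM in control and 254, 261, 239 and 268 CPM in cKO, had separate groups at -0.30 (adjusted p = 0.167). Cox4i1, at 284, 264, 310.4 and 312 CPM against 335, 328, 354 and 399 CPM, was also separate, at 0.28 (adjusted p = 0.182). Of 37 tested members 4 had groups that did not overlap, against 13.6% of all genes, and in the cultures the count was 29 of 42 at day 0, against 70.3%, and 14 of 42 at day 3, against 48%. Of the 9 members lower in both cultures, 8 had a cartilage interval that lay wholly above their day 0 estimate, by narrow margins for Atp5g1 (-0.49 to 0.20) and Atp5e (-0.41 to 0.12), and Cox7a2 did not. These members were picked by their calls in culture, and the count leaves out the error of the day 0 estimates. A difference between cultures and cartilage was not tested, since their libraries were made by different methods. Cox5a, a subunit on the matrix face, was assigned 6.07 CPM in control and 3.16 CPM in cKO in the whole-number table (exact permutation p = 0.0286, adjusted 0.152), but 78.8 and 80.3 CPM in the authors' estimated counts of the same libraries, so its low value depends on how reads were assigned. Cox5b, Uqcrc2, Atp5l and Atp5g2 were likewise 2.69, 4.89, 5.202 and 5.22 times higher in control in the estimated counts, and Uqcrc2 changed from -0.49 to 0.23 between the tables (adjusted p = 0.318 and 0.267).

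From day 0 to day 3, members moved in both directions in both genotypes. Day, BMP2 and the deposited table change together here, so the change cannot be assigned to any one of them. In control cultures 22 of 43 members passed, against 56.9% of all genes, with 10 higher (28.1%) and 12 lower (28.8%). In cKO cultures 28 of 43 passed, against 62.2%, with 12 higher (32.4%) and 16 lower (29.8%). With library totals in place of TMM these splits became 18 higher and 12 lower in control and 20 and 13 in cKO. The median log2 fold change of all genes then moved from 0 to 0.12 in control and from 0.02 to 0.11 in cKO. In complex III 5 of 9 members were lower in each genotype: Cyc1 fell by 0.64 in control and 0.46 in cKO, Uqcrq by 0.65 and 0.37, Uqcrc1 by 0.48 and 0.34, Uqcrfs1 by 0.45 and 0.32 and Uqcrc2 by 0.32 and 0.33 on the log2 scale. In complex V 6 of 18 were lower in control and 8 in cKO, among them Atp5b, which fell by 0.58 and 0.44, and Atp5a1, which fell by 0.39 and 0.34. In complex IV 6 were higher and 1 lower in control, and 7 higher and 3 lower in cKO, including Cox8a at 0.51 and 0.40 and Cox7a2l at 0.48 and 0.38. One of the higher calls in control is Cox7b2, which rests on the 3 counts of control replicate 2. The 2 genotypes changed unequally for 2 of 43 members, Cox4i2 and Cox6b2 (edgeR interaction, against 16.8% of all genes, both of them lower, against 6.89%, and 0 higher, against 9.94%). Without control replicate 3 at day 3 the number was 6, and without cKO replicate 4 it was 4. Over all genes, 2411 of 14872 and 4051 of 14833 passed in these fits, in place of 2509 of 14909.

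**Figure D5:**
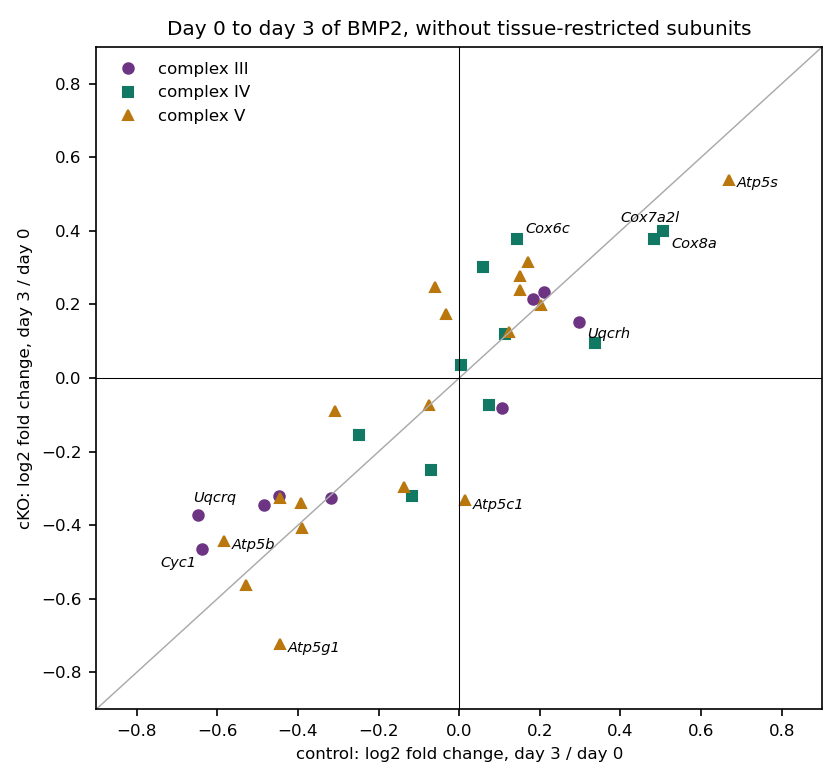
Log2 fold change from day 0 to day 3 in cKO (vertical axis) against that in control (horizontal axis) for members other than tissue-restricted subunits, coloured by complex, with a line of equal change. Points follow the line in both directions, with Cyc1, Uqcrfs1, Atp5a1 and Atp5b below 0 on both axes and Cox8a, Cox7a2l and Atp5s above.

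Compared per kilobase of transcript, the members differed widely in level. In day 0 controls Atp5b was highest at 461 ± 11.9 CPM per kilobase (SD, n = 3), followed by Cox4i1 at 271 ± 7.17, Atp5a1 at 251 ± 4.51, Cox6a1 at 227 ± 9.02 and Atp5g3 at 202 ± 2.35. In day 3 controls Atp5b led again at 329 ± 28.0 CPM per kilobase (SD, n = 4), followed by Cox4i1 at 305 ± 35.6, Cox7c at 218 ± 21.8, Uqcrh at 215 ± 15.4 and Atp5a1 at 205 ± 7.49. At day 3 the step from Atp5b to Cox4i1 and the steps from Cox7c to Atp5a1 were smaller than the spread between libraries. Shared sequence touches some of these levels: 8 members have a near-identical copy elsewhere and 8 overlap another gene in exon sequence. Among members with counts, only Atp5g2 had a copy with over 10% of its own counts in the 3 tables of the main tests. In the estimated counts of cartilage others did too. Cox7c had Gm10012 at 1.91 times its counts, Atp5l had Gm10221 at 0.175 times and Cox6c2 had Cox6c at 7.39 times. Overlapping genes passed 10% for Atp5f1 with Wdr77, Atp5j with Gabpa and Cox4i1 with Emc8 in the cultures. In the whole-number cartilage counts they did so for Atp5f1, Atp5j and Cox5a, the last with Gm26631.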

How the data were processed

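For the cultures the authors deposited estimated counts (expected counts) per gene, which need not be whole, in 1 table for day 0 and 1 for day 3. The aligner and counter are not given in the sources used here, and the values were rounded to whole numbers before every test. The cartilage libraries were barcoded with molecular identifiers, per the labels' protocols, and the authors deposited them both as whole-number counts, used for the main tests, and as estimated counts. The submitters' processing notes name GRCm38 and, for cartilage, UMI-tools 1.1.1, Trim Galore 0.6.7, HISAT2 2.2.1, featureCounts 2.0.1 and DESeq2 1.34.0, without their roles. Symbols, positions and transcript lengths came from GENCODE M21 and promoters from RefSeq. The length of a gene, also used for levels per kilobase, is that of its longest transcript tagged as principal. Where none is tagged it is that of its longest transcript. 0 per-sample columns were left unused.

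All genes past edgeR's filterByExpr (minimum count 10, minimum total 15) were fitted with edgeR 4.0.16 in R 4.3.3 (quasi-likelihood F test, TMM scaling), with sex as a covariate in cartilage. P-values were adjusted by Benjamini-Hochberg over all genes tested, and calls were made under 0.05. The genotype comparisons used their own libraries, and the day and interaction comparisons all 14 culture libraries. Intervals are 95% t intervals. Members under the filter were compared by exact permutation tests. A fold against a group at 0 used a floor of 3 counts per library, which covers counting error only, and equals 0.0556 to 0.0690 CPM for day 0 libraries, 0.151 to 0.211 for day 3 libraries and 1.51 to 2.70 for cartilage libraries. The estimated counts of cartilage, rounded, served as an alternative. The other alternatives were RLE scaling, library totals, DESeq2 1.42.0, no filter, a replicate block, all culture libraries in 1 fit, no sex covariate and leaving out each library. The genotype fits were run on simulated data with log2 changes larger than most described here, so that run does not bear on small changes. The day and interaction fits were not simulated. Near-identical copies and overlapping genes were sought at 95% identity over at least 100 bp.

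Named members are the tissue-restricted forms and their partners, members called alike in 2 or more genotype comparisons, and up to 5 called members with the largest rise and 5 with the largest fall per comparison. From the other lists, counts and up to 5 called genes are given. Atp5g3, Atp5a1, Uqcrc2 and other members given by their estimate alone complete a role. Members and lists were chosen with earlier results of these data known.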

Additional observations from a re-analysis of the deposited data

Results flagged for a closer look

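With groups of 4 libraries, 158 member and group combinations were examined for a library far from its group, and 10 were found. Chance alone gives about 1 in 20. The figure quoted for each is the gap to the nearest library as a share of the group's range. In day 3 cKO cultures, Cyc1 was lowest in replicate 4 (0.929, 59.1 CPM against 69.0 to 69.8 CPM), Cox7a2 highest in replicate 4 (0.852, 54.8 against 49.4 to 50.2 CPM) and Uqcrc1 highest in replicate 2 (0.886, 107 against 97.6 to 98.6 CPM). In day 3 controls, Atp5s was lowest in replicate 3 (0.842, 10.2 against 10.9 to 11.1 CPM), Cox6a2 was lowest in replicate 3 (0.854, 2.66 against 4.52 to 4.84 CPM), and Cox7b2 was highest in replicate 2, the single control culture library with any count of it (1.0, 0.167 against 0 CPM). In cartilage controls, Atp5a1 was lowest in replicate 1 (0.830, 269 against 314 to 323 CPM), Cyc1 lowest in replicate 4 (0.883, 61.3 against 69.0 to 70.05 CPM) and Uqcrq highest in replicate 4 (0.926, 79.9 against 75.6 to 75.9 CPM). In cartilage cKO libraries, Cox7a2 was lowest in replicate 3 (0.854, 73.8 against 83.6 to 85.3 CPM).

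The genotype effect differed between day 0 and day 3 for Cox4i2, with an interaction of -2.01 on the log2 scale (edgeR adjusted p = 0.0135), and for Cox6b2, with an interaction of -2.24 (adjusted p = 0.00218).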

How the results depend on the processing

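Counts of called members moved by more than 1.5 times under few alternatives. Fitting all 14 culture libraries together gave 12 at day 0 (1 higher, 11 lower) in place of 23. Over all genes, 6260 of 14909 passed in that fit, in place of 10023 of 15530. In cartilage, DESeq2 called 2 and edgeR without the filter 3, where the main test called 0. Over all genes these called 436 of 14639 and 1044 of 23911, beside 544 of 8793 in the main test. The interaction count of 2 became 1 with a replicate block, where 1554 of 14909 genes passed in place of 2509. Leaving out each library in turn gave 21 to 24 calls at day 0, 13 to 19 at day 3, 0 to 0 in cartilage, 2 to 6 for the interaction, 19 to 26 for the control day change and 26 to 31 for the cKO day change. With library totals, Cox6b1 (0.01, 0.0085 unrounded) and Cox7a2 (0.01, 0.0076 unrounded) turned from lower to slightly higher at day 0 (adjusted p = 0.828 and 0.862). Leaving out each library gave 0 (without control replicate 2 at day 3, adjusted p = 1) to 4.01 for the day change of Cox7b2 in controls.

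Deviations of same-numbered libraries were weakly correlated (-0.026 to 0.246 at day 0, -0.151 to -0.078 at day 3 and -0.078 to 0.262 in cartilage). With 3 or 4 such pairs in a setting this cannot exclude a shared litter, day or batch. The main fits did not pair libraries. In cartilage, replicates 1 and 2 are male and 3 and 4 female in both genotypes. A fit with the replicate block called 21 members at day 0, 13 at day 3, 0 in cartilage, 1 for the interaction, 21 for the control and 27 for the cKO day change. Depth limits cartilage most, where 3 counts equal 1.51 to 2.70 CPM, above the culture levels of several tissue-restricted forms.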
